A study of Rattus norvegicus with 12 samples.

Results

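Hepatic stellate cells were followed through 9 marker genes, Des, Acta2, Tagln, Rgs5, Lrat, Reln, Dcn, Hgf and Pdgfrb, in rat liver. They were measured by 12 probe sets, out of 14218 genes and 20832 probe sets that carried exactly 1 gene symbol. A probe set is a group of short array sequences that together report 1 transcript. Every probe set whose only symbol was 1 of these 9 was taken; Pdgfrb had 3, Reln had 2 and each of the others had 1. Another 5 probe sets named both Acta2 and the cardiac actin gene Actc1 and were not used.

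The samples, all labelled as liver, came from Sprague-Dawley rats in 4 groups of 3 arrays. The QHD group received a high-fat diet (HFD) for 4 weeks and then Qushi Huayu Decoction, a Chinese herbal medicine, at 0.1 ml/kg by daily gavage with the HFD for another 4 weeks. The GC group followed the same schedule with geniposide and chlorogenic acid, 2 plant compounds given together at a dose that the labels leave out. The HFD group ate the HFD alone, and the normal group ate standard chow. The HFD is thus common to the QHD, GC and HFD groups. Every title gives 4 weeks, the HFD and normal ones included, without saying whether this is the whole time on the diet, and the labels give no ages, vehicle gavage or array batch. With no GC dose given, QHD and GC are not known to match in dose and were compared as they stand. The study asks how QHD acts in fatty liver.

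Stellate cells lie between the sinusoidal endothelium and the hepatocytes, where they store vitamin A as retinyl esters. In injured liver they can lose this store, take on a contractile, myofibroblast state and lay down collagen, with platelet-derived growth factor (PDGF) as a main mitogen. Lrat and Reln are usually linked to the storing cell and Acta2 and Tagln to the contractile one, while Des marks rat stellate cells in both states. Des, Acta2, Tagln and Rgs5 are also made by vascular smooth muscle or pericytes, and Dcn and Pdgfrb by fibroblasts, so none of these 6 belongs to stellate cells alone. In RNA from whole tissue, fewer cells of a type and less RNA per cell cannot be told apart.

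RefSeq promoters of the GRCr8 assembly were matched to 6 of the 9 genes. Each window holds the 250 bases before the start of the gene. Those of Acta2 and Des are shown because both genes encode muscle-type filament proteins, and that of Reln because it belongs to the secreted proteins and differs most in base composition. Capitals mark matches to the CArG box, the serum response factor motif (CC, then 6 bases that are A or T, then GG), here with 1 G or C allowed among those 6, and to GGGCGG, a GC box, on either strand. The Acta2 window is chr1:241172504-241172753 on the minus strand, the Des window is chr9:84299376-84299625 on the plus strand and the Reln window is chr4:13628318-13628567 on the plus strand.
Acta2: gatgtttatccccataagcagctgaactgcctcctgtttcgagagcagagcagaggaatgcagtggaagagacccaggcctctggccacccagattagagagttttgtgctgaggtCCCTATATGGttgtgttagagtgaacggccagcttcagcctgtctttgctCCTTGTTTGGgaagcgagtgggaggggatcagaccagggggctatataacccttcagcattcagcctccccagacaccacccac
Des: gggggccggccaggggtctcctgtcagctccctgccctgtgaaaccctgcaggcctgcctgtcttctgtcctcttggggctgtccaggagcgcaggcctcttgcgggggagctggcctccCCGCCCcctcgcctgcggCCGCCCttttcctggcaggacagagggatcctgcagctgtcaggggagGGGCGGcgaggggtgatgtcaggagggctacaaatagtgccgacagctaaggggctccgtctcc
Reln: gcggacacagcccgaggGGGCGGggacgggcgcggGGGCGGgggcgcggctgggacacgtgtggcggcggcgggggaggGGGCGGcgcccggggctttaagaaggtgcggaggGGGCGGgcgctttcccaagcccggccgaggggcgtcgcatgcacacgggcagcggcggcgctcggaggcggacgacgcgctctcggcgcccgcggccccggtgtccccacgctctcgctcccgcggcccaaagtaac

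The Acta2 window held 2 CArG matches, CCCTATATGG at 134 bases and CCTTGTTTGG at 84 bases before the start, each with 1 G or C in its middle, and no match to the strict motif. Among 27457 promoters of this length, 7.97% held a match of the looser kind and 1.5% a strict one. The Des window held no CArG match of either kind and 3 GC boxes. The Reln window held 4 GC boxes, which 32.4% of all promoters have at least once, and was 80.0% G and C against a median of 52.0%. The 2 motifs did not overlap in these windows. Among the windows not shown, that of Lrat held 1 CArG match of the looser kind and 1 GC box. The Rgs5 window held 1 GC box, and the Hgf window held neither motif. The array files hold no measure of binding or chromatin, so these matches describe the sequences only.

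The values are log2 signals, 1 per probe set and array, for 31099 probe sets. Array medians lay between 6.62 and 6.87 except for 7.19 on the array labelled normal 3, and 76 to 220 probe sets an array stood at 0. The number of arrays limits the precision, and the labels number the arrays without saying that each number is a separate rat, so p-values measure the spread between these samples. The array labelled normal 3 went against its tissue label. Its median over 14 hepatocyte markers was 6.23 against 14.70 to 15.25 on the other 11 arrays, and the fat cell hormone gene Adipoq stood at 14.41 against 2.42 to 5.31. It was left out, so the normal group has 2 arrays, and differences of the markers from normal were also computed with it. A linear model (limma) was fitted over the 11 arrays to the 9459 genes with a mean above 6.66, the middle value of the means of the probe sets. Of the 9 markers, 7 passed this filter; Hgf and Tagln did not. A gene was called where the p-value adjusted over all genes tested was under 0.05.

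The stellate markers themselves differed between the array labelled normal 3 and the rest. Des, Acta2, Tagln, Rgs5, Dcn and all 3 Pdgfrb probe sets were above all 11 other arrays there, Lrat and Hgf were below all of them, and both Reln probe sets lay within their range. Lrat stood at 5.40 on that array, against 8.62 to 9.45 on the others, and Dcn at 14.36 against 8.15 to 10.02. Of 21 other stellate genes with a probe set, 8 were above and 8 below all 11 arrays, shares of 38.1% and 38.1% beside 36.9% and 32.3% of all genes tested. Lhx2, a transcription factor of stellate cells, was at 0.12 and Colec11, a collectin that they secrete, at 6.44, against 8.03 to 8.78 and 10.86 to 11.63 on the 11 arrays. Of the genes that went the other way, Cygb was at 11.20 and Pdgfra at 12.54, against 7.38 to 8.43 and 8.61 to 9.90. Lhx2, Colec11, Cygb and Pdgfra were singled out after their values were seen. All 13 of the smooth muscle contractile genes were above the 11 arrays.

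**Figure D1:**
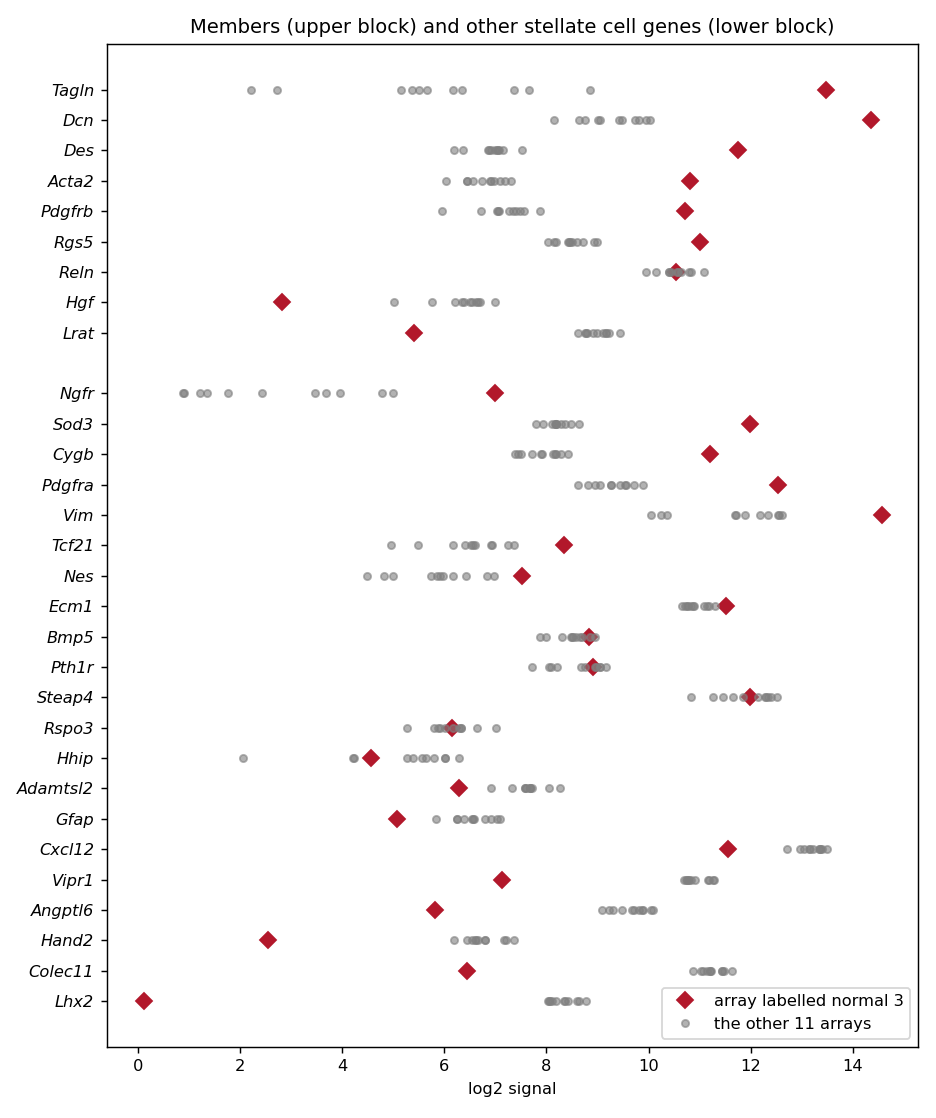
Log2 signal of the stellate markers (upper block) and of other stellate cell genes (lower block), with 1 point per array: diamonds are the array labelled normal 3 and grey points the other 11 arrays. Tagln, Dcn and Des lie right of all grey points, at 13.48, 14.36 and 11.75, while Lrat at 5.40 and Lhx2 at 0.12 lie left of them. In the lower block Cygb, at 11.20, lies right of its grey points.

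No marker was called by limma in any of the 6 comparisons. In QHD against HFD, 0 of 7 markers were called beside 0.56% of all genes, 3 had an unadjusted p under 0.05 beside 12.7% of all genes, and 3 had groups that did not overlap beside 17.5%. In GC against HFD, 0 of 7 were called beside 0.0951%, 0 had an unadjusted p under 0.05 beside 8.76%, and 1 had groups that did not overlap beside 13.5%. These comparisons share the 3 HFD arrays, so they are not independent of each other. In QHD against GC, 0 of 7 were called beside 0.275%, 2 had an unadjusted p under 0.05 beside 9.98%, and 2 had groups that did not overlap beside 18.5%. The markers thus hold no call between the HFD-fed groups in this fit. With array weights, which give noisier arrays less say, Pdgfrb and Rgs5 were called in QHD against HFD, beside 434 of 9459 genes.

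In HFD against normal, 0 of 7 were called beside 0.529% of all genes, 2 had an unadjusted p under 0.05 beside 14.4%, and 4 had groups that did not overlap beside 28.3%, all of them above normal, where 17.5% of all genes stood. In QHD against normal, 0 of 7 were called beside 7.46%, 2 had an unadjusted p under 0.05 beside 25.1%, and 3 had groups that did not overlap beside 43.6%, all above normal beside 26.5%. In GC against normal, 0 of 7 were called beside 9.61%, 3 had an unadjusted p under 0.05 beside 25.6%, and 3 had groups that did not overlap beside 43.9%, all above normal beside 26.5%. These comparisons share the same 2 normal arrays. The estimated difference was positive for 7 of 7 markers in HFD against normal and in GC against normal and for 6 of 7 in QHD against normal. Its median was 0.42, 0.19 and 0.45 on the log2 scale in HFD, GC and QHD against normal, beside 0.03, 0.05 and 0.05 over all genes. With the array labelled normal 3 included, 5 of these markers in HFD against normal, 4 in QHD against normal and 5 in GC against normal changed sign.

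**Figure D2:**
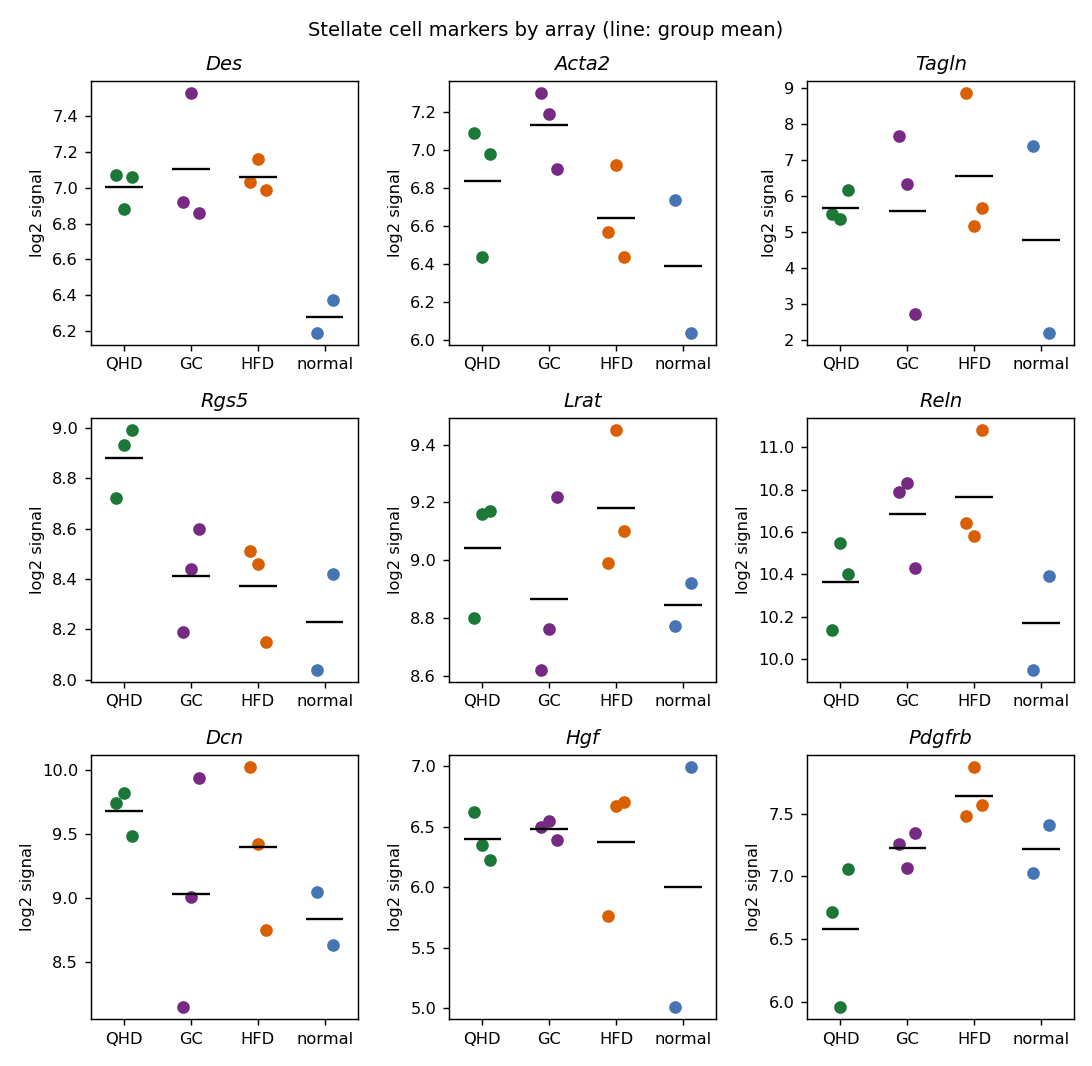
Log2 signal of each stellate marker by array, with 1 panel per gene on its own y axis, 1 point per array and a line at each group mean, for QHD, GC, HFD and normal over 11 arrays. Des lies above both normal arrays on all 9 HFD-fed arrays, Pdgfrb is lowest in QHD, and Tagln spreads over 2.21 to 8.85 across the 11 arrays.

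Des encodes desmin, the intermediate filament of muscle that also marks rat stellate cells. Its log2 signal was 7.07, 6.88 and 7.06 in QHD, 6.92, 7.53 and 6.86 in GC, 6.99, 7.03 and 7.16 in HFD, and 6.19 and 6.37 in normal livers. All 9 HFD-fed arrays thus lay above both normal arrays, as they did for 10.5% of all genes tested. Against normal the difference was 0.78 ± 0.25 in HFD (SE, adjusted p = 0.166), 0.72 ± 0.25 in QHD (adjusted p = 0.101) and 0.82 ± 0.25 in GC (adjusted p = 0.0621), none of which passed. The 95% interval of the HFD difference was 0.23 to 1.32, a 1.71-fold estimate. Between the HFD-fed groups Des overlapped, with -0.06 ± 0.22 for QHD against HFD and 0.04 ± 0.22 for GC against HFD. With the array labelled normal 3 included, the differences from normal turned to -1.05, -1.11 and -1.01 in HFD, QHD and GC (adjusted p = 0.759, 0.656 and 0.722).

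Acta2 encodes alpha smooth muscle actin, the usual mark of activated stellate cells. Its log2 signal was 7.09, 6.44 and 6.98 in QHD, 7.30, 7.19 and 6.90 in GC, 6.57, 6.92 and 6.44 in HFD, and 6.74 and 6.04 in normal livers. GC livers were above both normal livers, and every other pair of groups overlapped. The difference was 0.74 ± 0.30 for GC against normal (95% interval 0.07 to 1.41, adjusted p = 0.15) and 0.49 ± 0.27 for GC against HFD (-0.11 to 1.09, adjusted p = 0.638). QHD differed from HFD by 0.20 ± 0.27 and HFD from normal by 0.25 ± 0.30, both inside intervals that span 0. The last value was -0.10 without normal 4, whose Acta2 signal was the lowest of the 11 arrays, and with normal 3 included the GC difference from normal was -0.73 (adjusted p = 0.754).

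Tagln encodes transgelin, an actin-binding protein of smooth muscle. Its log2 signal was 5.50, 5.36 and 6.17 in QHD, 7.66, 6.34 and 2.73 in GC, 8.85, 5.16 and 5.67 in HFD, and 7.37 and 2.21 in normal livers. The GC, HFD and normal arrays lay far apart within their groups, the QHD arrays lay closer together, and all groups overlapped. Its pooled spread within groups was 2.23 (SD) beside a median of 0.20 over the genes tested. In a fit of every probe set without the filter, the difference from normal in HFD was 1.77 ± 1.75, with a 95% interval of -2.15 to 5.68, so neither direction was resolved, and it was -1.13 with normal 3 included.

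Tagln varied with smooth muscle genes from array to array. Over the 11 arrays its signal correlated with that of Tpm2, a muscle tropomyosin, at r = 0.87, with Actg2, an enteric smooth muscle actin, at 0.76, and with Myh11, the smooth muscle myosin heavy chain, at 0.74. These 3 were singled out after their values were seen; over all 13 smooth muscle genes the median r was 0.50, with 10 above 0. The points share arrays, scaling and 4 groups, so r is a description. The arrays HFD 24 and normal 2 were high in Myh11 at 9.19 and 8.32, against 5.87 to 7.43 on the other 9, and in Tagln at 8.85 and 7.37; GC 35, with Tagln at 7.66, had Myh11 at 7.21. The same median r was 0.09 for Acta2, -0.02 for Des and -0.14 for Rgs5. The part of smooth muscle RNA in the Tagln values was not tested.

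**Figure D3:**
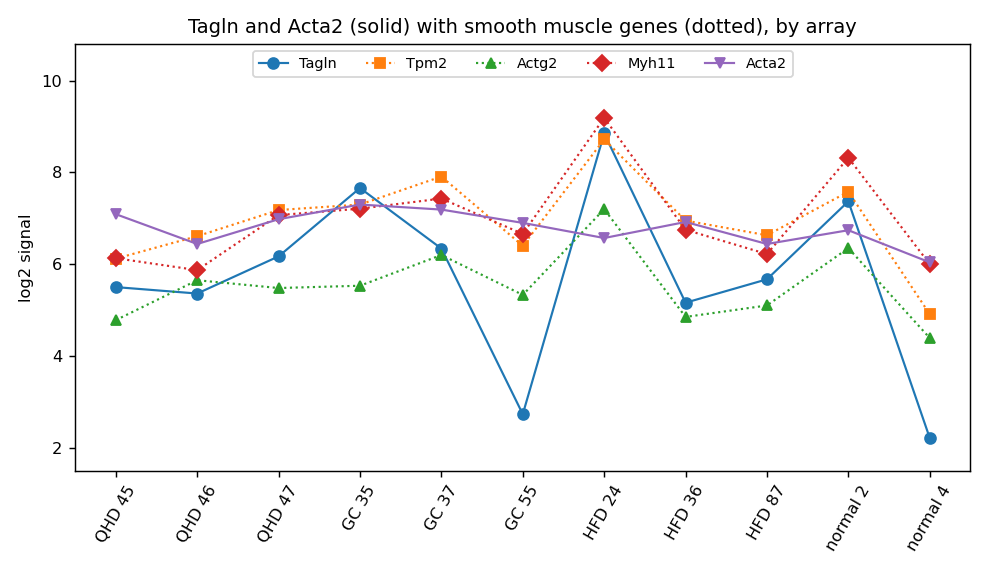
Log2 signal of Tagln and Acta2 (solid lines) and of smooth muscle genes (dotted lines) on each of the 11 arrays, ordered by group along the x axis. Tagln peaks with Myh11 and Tpm2 on HFD 24, at 8.85, 9.19 and 8.72, while Acta2 stays between 6.04 and 7.30.

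Rgs5, regulator of G protein signalling 5, is a mural cell gene best known from pericytes. Rgs5 had log2 signals of 8.72, 8.93 and 8.99 in QHD, 8.19, 8.44 and 8.6 in GC, 8.51, 8.46 and 8.15 in HFD, and 8.04 and 8.42 in normal livers. The 3 QHD arrays were the 3 highest of the 11 and overlapped no other group. QHD was higher by 0.50 ± 0.17 than HFD (95% interval 0.14 to 0.87, adjusted p = 0.231), by 0.47 ± 0.17 than GC (0.11 to 0.84, adjusted p = 0.364) and by 0.65 ± 0.19 than normal (0.24 to 1.06, adjusted p = 0.0573), and none of these passed. In the authors' deposited table Rgs5 has p = 0.0261 for QHD against HFD, unadjusted and from a test it does not name. GC against HFD was 0.03 ± 0.17 (-0.33 to 0.40). With array weights the QHD differences from HFD and from normal passed (adjusted p = 0.0317 and 0.0429), and with normal 3 included the difference from normal was -0.27 (adjusted p = 0.84). Of the other pericyte genes, 4 were tested and 0 were called in any comparison. In QHD against HFD, 1 of these 4 had a positive difference.

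Lrat encodes the enzyme that esterifies retinol for storage. Its log2 signal was 8.80, 9.16 and 9.17 in QHD, 8.62, 8.76 and 9.22 in GC, 8.99, 9.45 and 9.10 in HFD, and 8.77 and 8.92 in normal livers. HFD livers lay above both normal livers and all other groups overlapped. The differences were 0.33 ± 0.21 for HFD against normal (95% interval -0.12 to 0.79, adjusted p = 0.515), -0.14 ± 0.18 for QHD against HFD and -0.32 ± 0.18 for GC against HFD (-0.72 to 0.09, adjusted p = 0.652). Lrat was the tested marker with the narrowest range, 0.83 over the 11 arrays. With normal 3 included, where Lrat was low, the differences from normal were 1.48 in HFD, 1.35 in QHD and 1.17 in GC (adjusted p = 0.732, 0.481 and 0.559).

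Reln encodes reelin, a secreted glycoprotein that signals through the lipoprotein receptors Vldlr and Lrp8 and the adaptor Dab1. On the brighter probe set, which stood for the gene, its log2 signal was 10.14, 10.55 and 10.40 in QHD, 10.79, 10.83 and 10.43 in GC, 10.64, 10.58 and 11.08 in HFD, and 9.95 and 10.39 in normal livers. The other probe set had 7.33, 7.81 and 8.02 in QHD, 8.16, 8.52 and 7.65 in GC, 8.48, 8.08 and 8.54 in HFD, and 7.35 and 7.45 in normal livers. Both put every HFD array above every QHD array and every normal array, and they correlated at r = 0.88 over the 11 arrays.

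For QHD against HFD the Reln difference was -0.40 ± 0.18 (95% interval -0.79 to -0.01, adjusted p = 0.376) on the brighter probe set and -0.65 ± 0.24 (-1.18 to -0.12, adjusted p = 0.424) on the other. For HFD against normal it was 0.59 ± 0.20 (0.15 to 1.03, adjusted p = 0.188) and 0.97 ± 0.27 (0.38 to 1.56, adjusted p = 0.177) on the same 2. None of these passed. The dimmer probe set was read from the fit of every probe set without the filter, so its adjusted p covers more tests. For normal diet against HFD, the authors' deposited table gives p = 0.0363 on the dimmer probe set and 0.113 on the brighter one. These p-values are unadjusted and come from a test that it does not name. Which normal arrays entered that test is not stated, so they may include normal 3, unlike the differences above. GC lay between HFD and normal livers, with -0.08 ± 0.18 against HFD and 0.51 ± 0.20 against normal (adjusted p = 0.132), and QHD against normal was 0.19 ± 0.20. With normal 3 included, the brighter probe set differed from normal by 0.47 in HFD, 0.07 in QHD and 0.39 in GC, and the other by 0.78, 0.13 and 0.52.

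Dcn encodes decorin, a small leucine-rich proteoglycan that binds collagen fibrils and transforming growth factor beta (TGF beta). Dcn had log2 signals of 9.74, 9.82 and 9.48 in QHD, 8.15, 9.01 and 9.94 in GC, 10.02, 9.42 and 8.75 in HFD, and 9.05 and 8.63 in normal livers. QHD livers lay above both normal livers, and GC and HFD livers were spread widely over both. The QHD difference from normal was 0.84 ± 0.47 (95% interval -0.21 to 1.89, adjusted p = 0.303). It passed where only the QHD and normal arrays were fitted (adjusted p = 0.0222) and was -1.0 with normal 3 included (adjusted p = 0.706). The differences from HFD were 0.28 ± 0.42 in QHD and -0.36 ± 0.42 in GC, and each changed sign when 1 array was left out, HFD 87 for QHD and GC 35 for GC.

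Hgf encodes hepatocyte growth factor, the ligand of the receptor Met and a mitogen for hepatocytes. Hgf had log2 signals of 6.62, 6.35 and 6.22 in QHD, 6.50, 6.55 and 6.39 in GC, 5.76, 6.67 and 6.70 in HFD, and 5.01 and 6.99 in normal livers. All groups overlapped, and the 2 normal livers were the lowest and the highest of the 11. In the fit without the filter the differences were 0.02 ± 0.44 for QHD against HFD (95% interval -0.94 to 0.98), 0.10 ± 0.44 for GC against HFD (-0.86 to 1.06) and 0.38 ± 0.50 for HFD against normal (-0.70 to 1.45). The last was 1.43 with normal 3 included, where Hgf was low.

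Pdgfrb encodes the beta receptor for PDGF. On the brightest of its 3 probe sets, which stood for the gene, the log2 signal was 6.72, 5.96 and 7.06 in QHD, 7.26, 7.07 and 7.35 in GC, 7.48, 7.87 and 7.57 in HFD, and 7.03 and 7.41 in normal livers. All 3 QHD arrays were below every HFD and every GC array, and QHD 46 was the lowest of the 11. QHD minus HFD was -1.06 ± 0.27 (95% interval -1.66 to -0.46), a 2.08-fold lower estimate, with an adjusted p of 0.118 that did not pass. With array weights it passed (adjusted p = 0.0404). QHD minus GC was -0.64 ± 0.27 (-1.24 to -0.04, adjusted p = 0.473), and GC minus HFD was -0.41 ± 0.27 (-1.01 to 0.18, adjusted p = 0.685) with no overlap. Against normal the difference was -0.64 ± 0.30 in QHD (adjusted p = 0.222), 0.01 ± 0.30 in GC and 0.42 ± 0.30 in HFD (adjusted p = 0.594), and with normal 3 included these were -1.8, -1.16 and -0.74.

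The 2 dimmer Pdgfrb probe sets had means under the filter. The first had 3.81, 3.71 and 3.27 in QHD, 6.25, 6.23 and 5.39 in GC, 6.25, 4.33 and 5.24 in HFD, and 3.70 and 4.19 in normal livers. The second had 5.24, 5.20 and 3.53 in QHD, 4.68, 6.07 and 3.77 in GC, 5.83, 5.12 and 5.41 in HFD, and 3.92 and 4.92 in normal livers. On the first the QHD arrays were again below every HFD and GC array, and on the second they overlapped both. QHD minus HFD was -1.67 ± 0.59 on the first (adjusted p = 0.381) and -0.80 ± 0.69 on the second (adjusted p = 0.791), so the sign was the same on all 3. The 2 dimmer ones come from the same sequence record and spread within groups by 0.61 and 0.87 (SD). They are thus not independent readings. The 3 probe sets disagreed on GC minus HFD, at -0.41 on the brightest, 0.69 on the first dimmer and -0.62 on the second dimmer one, so no direction is given for GC. They also disagreed against normal: GC minus normal was 0.01 on the brightest, 2.02 ± 0.66 with no overlap on the first (adjusted p = 0.121) and 0.42 on the second, and QHD minus normal was -0.64, -0.34 and 0.24. Their pairwise correlations over the 11 arrays were 0.40, 0.02 and 0.49. Of 7 smooth muscle contractile genes tested, 1 had a positive difference in QHD against HFD, with a median of -0.37 and 0 called, and their part in the Pdgfrb values was not tested.

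**Figure D4:**
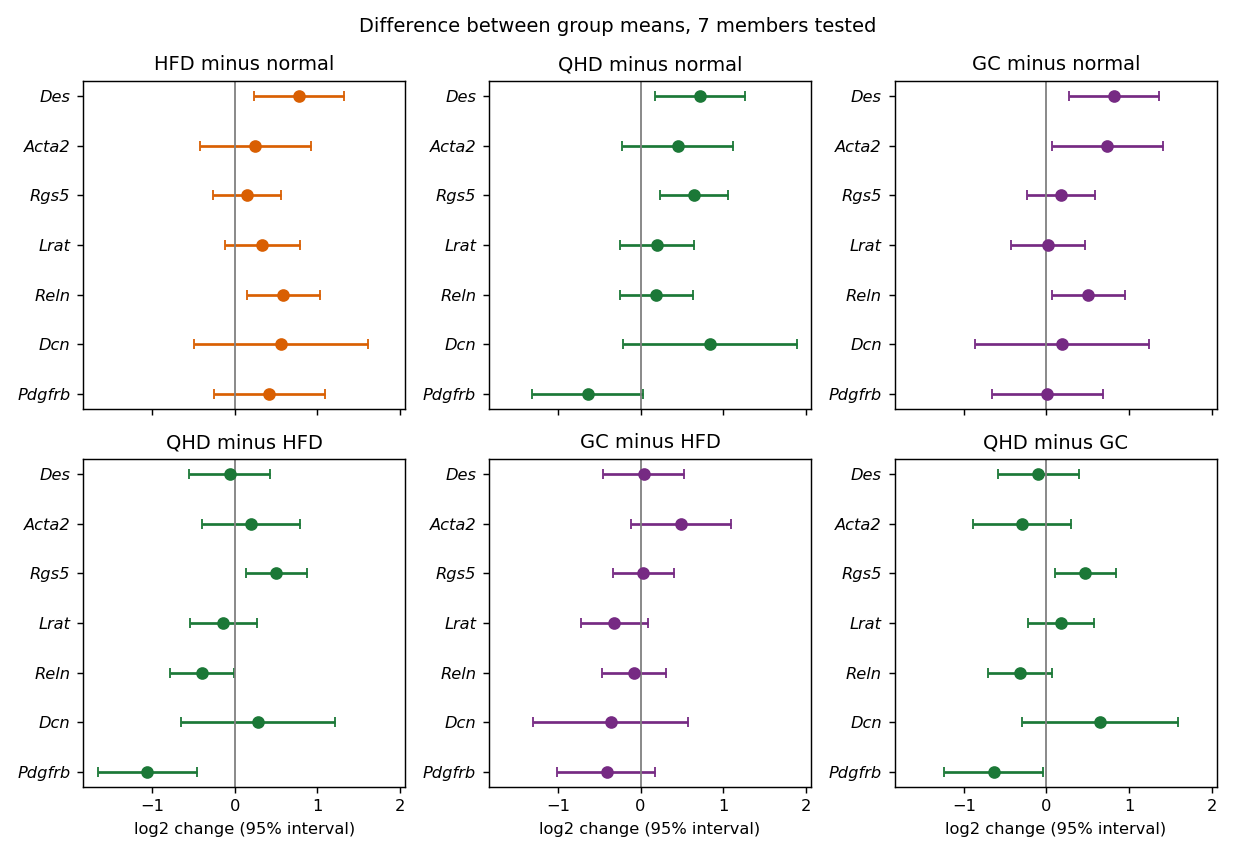
Difference between group means on the log2 scale (point) with its 95% interval (line) for the 7 stellate markers tested, with 1 panel per comparison and the vertical line at 0. Pdgfrb in QHD minus HFD lies at -1.06 with an interval of -1.66 to -0.46, and Des lies at 0.72 to 0.82 in all 3 comparisons with normal.

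The 7 tested markers did not move as 1 block over the arrays. Over their 21 pairs the median r was 0.12, with a range of -0.51 to 0.66 and 14 pairs above 0; the highest pair was Rgs5 with Dcn. The points share arrays and groups, and no p is given. Their pooled spread within groups was 0.20 for Rgs5, 0.22 for Des, 0.24 for Lrat, 0.25 for Reln, 0.32 for Acta2, 0.34 for Pdgfrb and 0.61 for Dcn (SD of log2 signal), beside a median of 0.20 for all genes tested. The gene most like each marker over the 11 arrays was Ankmy2 for Des (r = 0.912), Snx7 for Acta2 (0.938), Aifm1 for Rgs5 (0.914), Krt86 for Lrat (0.916), Ap1ar for Reln (0.921), Slc4a1ap for Dcn (0.872) and Spon2 for Pdgfrb (0.892). No other marker was among the 3 genes most like any marker, whose r was 0.836 to 0.938. These genes were picked as the highest r among all genes tested over 11 arrays. Their r values and the absence of other markers among them thus cannot show whether the markers moved together.

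Other stellate cell genes were read from a list of 22, of which 21 had a probe set and 15 were tested. In QHD against HFD 2 of 15 differences were positive, with a median of -0.32 on the log2 scale beside 0.02 over all genes, and 0 were called (5 at an unadjusted p under 0.05). In GC against HFD 3 of 15 were positive, with a median of -0.35 beside 0.03, and 0 were called (5 unadjusted). In HFD against normal 12 of 15 were positive, with a median of 0.23 beside 0.03, and 0 were called (0 unadjusted); with normal 3 included 11 were positive. The smallest adjusted p between HFD-fed groups was that of Pth1r, a parathyroid hormone receptor, which had 7.71, 8.2 and 8.05 in QHD against 8.96, 9.16 and 9.05 in HFD livers, a difference of -1.07 ± 0.22 (adjusted p = 0.067). Vipr1, a receptor for vasoactive intestinal peptide, fell in QHD by 0.48 ± 0.12 (adjusted p = 0.0359) and in GC by 0.44 ± 0.12 (adjusted p = 0.0406) against normal. Its differences from normal became 0.88 and 0.92 in QHD and GC with normal 3 included.

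The pathways in which the markers act were read from lists in the same way. Between QHD, GC and HFD, and in HFD against normal, 0 of the 124 genes tested from the 18 lists were called by limma. At an unadjusted p under 0.05 there were 23 of 124 (18.5%, beside 12.7% of all genes) in QHD against HFD, 13 (10.5%, beside 8.76%) in GC against HFD, 13 (10.5%, beside 9.98%) in QHD against GC and 22 (17.7%, beside 14.4%) in HFD against normal. Against normal 11 of 124 (8.87%) were called in QHD, beside 7.46% of all genes, and 10 of 124 (8.06%) in GC, beside 9.61%, so the list genes called there came at about the share of all genes. Of 8 PDGF ligands, receptors and adaptors tested, 0 were called in any comparison. Pdgfra, the alpha receptor, differed by -0.69 ± 0.24 in QHD against HFD (adjusted p = 0.257), and Pdgfa, a ligand, by 1.00 ± 0.33 in HFD against normal (adjusted p = 0.175). Of 7 genes tested from the list of the Hgf receptor, activators and inhibitors, 2 were called against normal in both treated groups. The receptor gene Met was under the filter and not tested. Plau, the urokinase that can activate the Hgf precursor, rose by 1.12 ± 0.23 in QHD (adjusted p = 0.0204) and 1.06 ± 0.23 in GC (adjusted p = 0.0175). Its difference in HFD against normal was 0.91 ± 0.23 and was not called (adjusted p = 0.0877). St14, the membrane protease matriptase, rose by 1.15 ± 0.26 in QHD (adjusted p = 0.0285) and 1.14 ± 0.26 in GC (adjusted p = 0.0221). Of the 2 reelin pathway genes tested, Dab1 fell by 1.85 ± 0.44 in QHD against normal (adjusted p = 0.0324) and differed by -1.43 ± 0.39 in QHD against HFD (adjusted p = 0.139).

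Of 15 retinoid genes, 1 was called in QHD against normal and 0 in the other comparisons. Rdh10, a retinol dehydrogenase, fell by 0.61 ± 0.16 there (adjusted p = 0.0445). Aldh1a1, which makes retinoic acid, had 14.32, 14.04 and 14.20 in QHD against 12.95, 12.60 and 13.45 in HFD livers, a difference of 1.19 ± 0.24 that did not pass (adjusted p = 0.0675). Cyp26a1, which degrades retinoic acid, differed by 1.44 ± 0.31 between QHD and GC (adjusted p = 0.114). From the list of TGF beta ligands, receptors and SMADs, 9 genes were tested. The ligands Tgfb1, Tgfb2 and Tgfb3 were under the filter and not among them. Of the 9, 1 was called in QHD against normal, where the inhibitory Smad7 fell by 0.74 ± 0.20 (adjusted p = 0.0493).

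Matrix genes gave no call in any comparison, with 0 of 5 fibrillar collagens, 0 of 8 matrix remodelling genes and 0 of 4 small leucine-rich proteoglycans. Counts at an unadjusted p under 0.05 by limma follow for QHD against HFD, GC against HFD and HFD against normal, in this order. They were 2, 0 and 4 of 5 collagens, 4, 1 and 2 of 8 remodelling genes and 1, 1 and 0 of 4 proteoglycans. The shares of all genes were 12.7%, 8.76% and 14.4%. The collagen differences were positive for 0 of 5 in QHD against HFD (median -0.47, beside 0.02 over all genes). They were positive for 0 of 5 in GC against HFD (median -0.48, beside 0.03) and for 5 of 5 in HFD against normal (median 0.72, beside 0.03). With normal 3 included, 0 of 5 collagens were positive in HFD against normal (median -0.89). Ogn, a proteoglycan of the decorin family, had 7.66, 8.35 and 8.41 in QHD, 8.15, 8.84 and 8.19 in GC and 9.40, 9.06 and 9.31 in HFD livers. Its difference was -1.11 ± 0.23 for QHD against HFD (adjusted p = 0.0677) and -0.86 ± 0.23 for GC against HFD (adjusted p = 0.323). The HFD arrays lay above all QHD and GC arrays, but neither difference passed.

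Markers of other cells were read beside these values. Of 11 macrophage markers, 0 were called in HFD against normal, where 11 of 11 were positive with a median of 0.65 (1.04 with normal 3 included), and 2 rose in QHD and 5 in GC against normal. Cd68, a lysosomal protein of macrophages, rose by 0.99 ± 0.20 in QHD (adjusted p = 0.0211) and 1.14 ± 0.20 in GC (adjusted p = 0.00991), Lyz2 by 1.35 ± 0.35 in each (adjusted p = 0.0476 and 0.0402), and Aif1 and Cd5l by 1.70 ± 0.30 and 1.10 ± 0.22 in GC (adjusted p = 0.00997 and 0.0145). The summed macrophage signal was 15.89 to 16.13 in QHD, 16.26 to 16.34 in GC, 15.56 to 16.36 in HFD and 15.31 to 15.59 in normal livers on the log2 scale. Over 7 smooth muscle genes it was 13.31 to 13.50 in QHD, 13.56 to 13.65 in GC, 13.55 to 13.73 in HFD and 13.69 to 13.76 in normal livers, so all QHD arrays were below the other groups in this sum. The median over the same 7 genes overlapped, at 7.90 to 8.45 in QHD, 7.72 to 8.78 in GC, 8.38 to 9.39 in HFD and 8.6 to 9.05 in normal livers. Cald1, a caldesmon gene, was the brightest of these 7 genes at 12.13 to 12.90, so it weighs most in their sum. It fell by 0.59 ± 0.12 in QHD against normal (adjusted p = 0.0201). In HFD against normal it differed by -0.22 ± 0.12 and was not called (adjusted p = 0.448). Of 14 hepatocyte markers, 0 had a positive difference in QHD against HFD, with a median of -0.17, and over all 14 the summed signal was 18.48 to 18.68 in QHD, 18.65 to 18.75 in GC, 18.63 to 18.93 in HFD and 18.72 to 18.91 in normal livers, with 0 called. The part of these cells in the marker values was not tested.

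Other calls in these lists were few. Entpd2, an ectonucleotidase of portal fibroblasts, rose by 1.00 in QHD and 1.12 in GC against normal (adjusted p = 0.0414 and 0.0221). Its difference in HFD against normal was 0.97 and was not called (adjusted p = 0.103). Entpd2 was the 1 portal fibroblast gene above the filter. With normal 3 included, its QHD and GC differences were -0.29 and -0.17. Lrrn4, a mesothelial gene, fell by 1.07 in GC against normal (adjusted p = 0.043). In HFD against normal it differed by -0.96 and was not called (adjusted p = 0.15). Fabp4, a fatty acid binding protein of fat cells and macrophages, rose by 2.74 ± 0.72 in QHD against normal (adjusted p = 0.0476). In HFD against normal it differed by 2.25 ± 0.72 and was not called (adjusted p = 0.175). It had 6.68, 8.58 and 9.82 in QHD livers, and the QHD call was lost when any HFD or GC array was left out. With normal 3 included the Fabp4 difference in QHD against normal was -0.30. Endothelial, cholangiocyte and pericyte lists held 0 calls in any comparison. Each of the 20 list calls named here was lost when at least 1 of the 11 arrays was left out, 19 of them without normal 2 and 13 without normal 4. With normal 3 included, 18 were lost, with Aif1 and Cd68 in GC against normal left, and 6 changed sign.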

How the data were processed

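RNA from samples labelled as liver was measured on 12 arrays. Per the submitters' processing notes, the log2 signals deposited by the authors are MAS5 values from Affymetrix Expression Console, with no version named. Back on the linear scale, every array's mean without its top and bottom 2% is 500, which shows a global scaling. The authors' deposited p-values come from a test that is not named. Symbols came from the GEO platform annotation: 20832 probe sets had 1 symbol, 436 several and 9831 none.

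Computed here, the probe set with the highest mean stood for its gene. Over 11 arrays, 9459 genes above the filter were tested in 1 fit of 4 groups. It used limma 3.58.1 in R 4.3.3 (trend and robust options, Benjamini-Hochberg). Marker probe sets under the filter, and the dimmer Reln probe set, were read from a fit of every probe set without the filter. Fits were tested on simulated data. Named were all markers and up to 4 called genes of each list, or otherwise the 1 with the smallest p. The first of the 3 genes most like each marker was also named. Adipoq, Lhx2, Colec11, Cygb, Tpm2, Actg2 and Myh11 were chosen after their values were seen, as was Pdgfra for its value on normal 3. The members and lists were chosen with earlier results of these data known. Promoters came from RefSeq; figures were drawn with matplotlib 3.10.9. Other settings and each array left out were tried.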

Additional observations from a re-analysis of the deposited data

Results flagged for a closer look

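The array labelled normal 3, which no comparison above uses in its first form, held signals of several stellate markers above those of all 11 other arrays, the 2 other normal arrays included. Des stood at log2 11.75 against at most 7.53 on the others, Acta2 at 10.81 against 7.30, Tagln at 13.48 against 8.85, Rgs5 at 11 against 8.99 and Dcn at 14.36 against 10.02. The 3 Pdgfrb probe sets stood at 10.72, 8.56 and 8.05 against at most 7.87, 6.25 and 6.07.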

How the results depend on the processing

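Over 42 differences of the tested markers, 834 values were computed under other settings or with an array left out: 788 kept their sign and their side of the threshold, 6 passed it newly and 40 changed sign. Array weights gave 2 markers called in QHD against HFD (Pdgfrb and Rgs5), 1 in QHD against normal (Rgs5) and 1 in GC against normal (Des, 1.05, adjusted p = 0.0213). Fitting only the groups compared gave 1 in QHD against normal (Dcn), and dropping the trend and robust options gave 1 in GC against normal (Des, adjusted p = 0.0293). Over all alternatives the adjusted p was 0.0404 to 1.00 for Pdgfrb and 0.0317 to 1.00 for Rgs5 in QHD against HFD, 0.0429 to 0.84 for Rgs5 and 0.0222 to 0.706 for Dcn in QHD against normal, and 0.0213 to 0.722 for Des in GC against normal.

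With normal 3 included, the differences turned to -1.05 for Des, -1.22 for Acta2, -0.78 for Rgs5, -1.28 for Dcn and -0.74 for Pdgfrb in HFD against normal, to -1.11, -1.02, -0.27 and -1.0 for Des, Acta2, Rgs5 and Dcn in QHD against normal, and to -1.01, -0.73, -0.74, -1.65 and -1.16 for Des, Acta2, Rgs5, Dcn and Pdgfrb in GC against normal. Quantile normalization turned Des to -0.05 and Rgs5 to -0.01 in GC against HFD, and Lrat to -0.08 and Pdgfrb to -0.14 in GC against normal. Array weights turned Dcn to 0.08 in GC against HFD, and Lrat to -0.02 and Pdgfrb to -0.08 in GC against normal. With each array left out in turn, differences that changed sign ranged over -0.10 to 0.60 (Acta2) and -0.04 to 0.34 (Rgs5) in HFD against normal, -0.04 to 0.60 (Dcn) in QHD against HFD, and -0.17 to 0.16 (Des), -0.08 to 0.14 (Rgs5), -0.17 to 0.07 (Reln) and -0.82 to 0.08 (Dcn) in GC against HFD. They ranged over -0.22 to 0.11 (Des) in QHD against GC, -0.03 to 0.41 (Reln) in QHD against normal, and -0.01 to 0.37 (Rgs5), -0.16 to 0.14 (Lrat), -0.26 to 0.63 (Dcn) and -0.18 to 0.19 (Pdgfrb) in GC against normal. The cause was not tested.

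Counts over all genes moved more. With normal 3 included, 0 genes were called in HFD against normal, QHD against HFD, GC against HFD and QHD against GC, 4 in QHD against normal and 65 in GC against normal, beside 50, 53, 9, 26, 706 and 909 over 11 arrays. Array weights gave 267, 434, 659, 185 and 1458 in the same comparisons except QHD against normal. Only the groups compared gave 1, 20, 0 and 70 in the first 4, and no trend or robust option gave 2 in GC against HFD and 10 in QHD against GC. Left-out arrays gave 11 (without normal 2) to 308 (without HFD 24) in HFD against normal, 18 (HFD 87) to 161 (HFD 36) in QHD against HFD, 0 (HFD 87) to 121 (HFD 36) in GC against HFD, 6 (GC 55) to 59 (HFD 36) in QHD against GC, and as few as 134 and 161 without normal 2 in QHD and GC against normal. No paired analysis was possible because the groups share no replicate numbers. Tagln, Hgf and the 2 dimmer Pdgfrb probe sets had mean signals under the filter.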
